A study of Mus musculus with 4 samples.

Results

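Neurite growth and the neuronal cytoskeleton were followed through 10 genes: the neurite growth gene Nrn1, the growth-associated genes Gap43 and Stmn2, the neuronal tubulin Tubb3, the microtubule-associated genes Map2, Mapt and Dcx, the adhesion gene Ncam1, and the neurofilament genes Nefl and Nefm. They were taken by symbol, with earlier results of these data known, and are 10 of the 22667 genes in the expression table. Together they have 42 of the 91656 alternative splicing events, of which 13 belong to Map2 and are filed under its older symbol Mtap2.

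The libraries came from Neuro-2a (N2a), a mouse neuroblastoma line that can put out neurites in culture. Cells received a non-targeting siRNA (siControl) or an siRNA against Arglu1 (siArglu1), a nuclear protein of transcription and splicing, for 48 h, and then vehicle (ethanol) or 100 nM of the synthetic glucocorticoid dexamethasone (Dex) for 4 h. Each of the 4 groups is 1 library, made from the combined polyA-selected mRNA of 3 cultures, so no spread between cultures can be measured. The siControl libraries are called the vehicle control and the Dex control. Ratios of the 10 genes carry exact 95% intervals that cover counting error only, and no p-value is given for the ratio of a single pair of libraries.

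Growing neurites are filled with microtubules, which are built from tubulin, stabilised by proteins such as MAP2, tau (Mapt) and doublecortin (Dcx), and made more dynamic by stathmins such as Stmn2. Growth cones carry GAP43 at their membrane, neuritin (Nrn1) is a surface protein that promotes neurite outgrowth and branching, and NCAM1 links neurites to each other and to their surroundings. Neurofilaments (Nefl, Nefm and their partners) fill out mature axons.

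Between 66074574 and 86541444 reads per library fell on genes. The targeted Arglu1 had 10165 reads in the vehicle control, 2637 after knockdown in vehicle, 11825 in the Dex control and 3254 after knockdown in Dex, that is, 26.4% (25.2 to 27.5) and 22.5% (21.7 to 23.4) of its control level after knockdown in vehicle and in Dex. Of 12 sympathetic neuroblast markers, 11 reached 1 cRPKM (reads per kilobase of mappable sequence, scaled to library size) in at least 1 library. The summed level of the 12 was 779 to 1029. The summed level of 9 glial markers was 1.52 to 2.16, and Aqp4, Slc1a3 and Olig2 were listed at 0 in all 4 libraries. The summed level of 12 smooth muscle and fibroblast markers was 11.9 and 11.8 cRPKM in the control libraries and 201 and 185 in the knockdown libraries, with 8 of the 12 higher in both. Acta2, Actg2 and Myl9 carried it, Col1a1 and Col1a2 stayed at 0.06 or below, and Col3a1 was listed at 0 in all 4 libraries. This rise was in the same siArglu1 libraries that enter every knockdown ratio given below, and its part in those ratios was not tested. In bulk RNA, fewer cells of a kind and less RNA per cell cannot be told apart.

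Sequences of alternative exons that the splicing results draw on are shown first. Exons were matched to GENCODE M21 transcripts of the GRCm38 build by their length and by the lengths of both flanking introns, since the deposited coordinates are of the older mm9 build. The 93-nt exon of Map2 (mm9 chr1:66478101-66478193; GRCm38 chr1:66431527-66431619, plus strand) encodes the extra microtubule-binding repeat of MAP2. It is shown because its inclusion differed in opposite directions between pairs.

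Map2 93-nt exon: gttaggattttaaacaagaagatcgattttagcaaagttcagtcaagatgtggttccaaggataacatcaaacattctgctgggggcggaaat

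Mapt has a pair of neighbouring 87-nt coding exons, which encode the optional inserts near the amino terminus of tau (GRCm38 chr11:104287123-104287209 and chr11:104289908-104289994, plus strand). Aligned without gaps, they share 30 of 87 positions (34.5%). The 30-nt exon of Ncam1 (GRCm38 chr9:49550540-49550569, minus strand) is the VASE exon, which adds a short stretch to one of the immunoglobulin domains. These are shown because the 87-nt exons had higher inclusion and the 30-nt exon lower inclusion in both knockdown libraries.

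Mapt 87-nt exon, first: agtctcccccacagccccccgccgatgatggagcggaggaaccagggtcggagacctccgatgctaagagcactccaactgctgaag
Mapt 87-nt exon, second: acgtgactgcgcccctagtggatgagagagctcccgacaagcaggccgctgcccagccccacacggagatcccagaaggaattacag
Ncam1 30-nt exon: gcatcgtggactcgaccagagaagcaagag

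By level per mappable length, the genes spanned several orders of magnitude. In siControl Veh, Tubb3 had 630 cRPKM, Stmn2 223, Gap43 181, Nrn1 67.3, Mapt 35.2, Ncam1 33.4, Map2 8.18 and Dcx 0.25. Nefl and Nefm were at 0.03 cRPKM or below in every library. The order was the same in all 4 libraries except for Mapt and Ncam1, which are neighbours and changed places after knockdown.

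**Figure D1:**
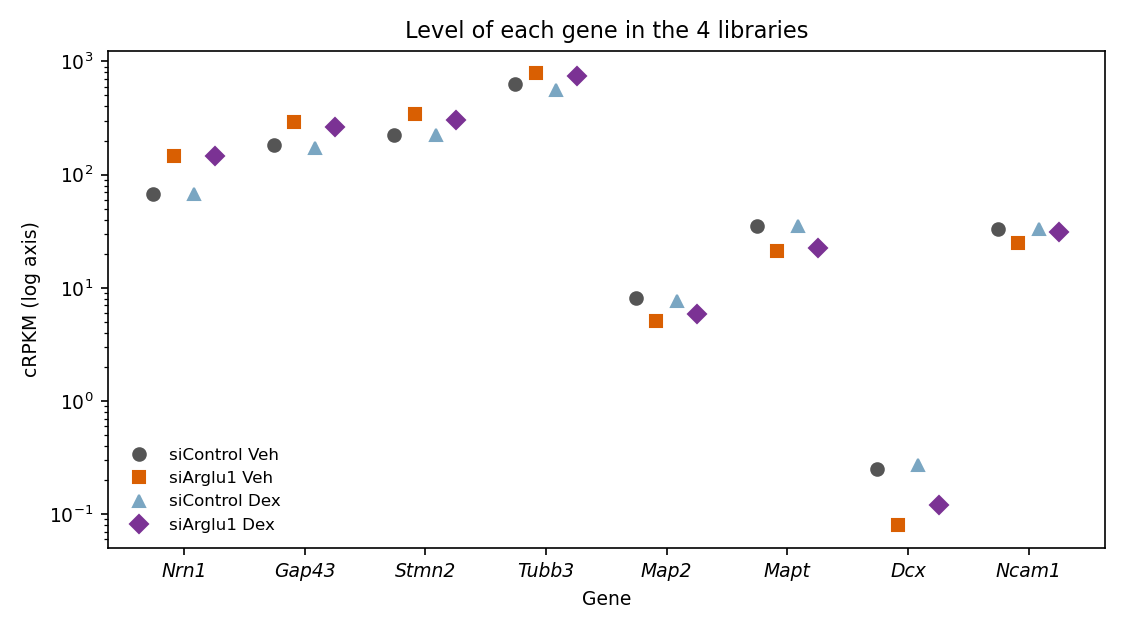
Level of 8 genes in each library, in cRPKM on a log axis, with 1 point per library (siControl Veh circles, siArglu1 Veh squares, siControl Dex triangles, siArglu1 Dex diamonds). Nrn1 stands at 67.3 and 67.1 in the control libraries and at 147 and 146 in the knockdown libraries, while Mapt, Map2 and Dcx lie lower in both knockdown libraries than in both controls; Nefl and Nefm, at 0.03 or below, are not drawn.

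Knockdown was compared within vehicle and within Dex, to ask how the level of each gene differs when Arglu1 is depleted. A log2 ratio of 0.81 or more in either direction, after TMM scaling of the reads, was taken as past the threshold. The 8 genes with at least 75 reads over the 4 libraries could be compared. Of these, Nrn1 rose and Dcx fell past the threshold in both treatments, and the other 6 stayed inside it. On deposited cRPKM with a pseudocount of 0.1, Dcx had -0.96 in vehicle and -0.75 in Dex, the latter inside the threshold, and a minimum mean of 1 cRPKM leaves Dcx out. In vehicle, 15.8% of the 12497 genes compared passed the threshold, 7.0% higher and 8.77% lower. In Dex, 12.1% passed it, 6.19% higher and 5.93% lower. With 1 of 8 genes in each direction, nothing about the group as a whole was read from these counts. The median ratio of the 8 was -0.01 in vehicle and 0.15 in Dex, beside 0.004 and 0.003 over all genes.

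Nrn1, which encodes neuritin, had 6976 reads in the vehicle control, 15332 after knockdown in vehicle, 7507 in the Dex control and 19840 after knockdown in Dex. Both knockdown libraries were above both controls, and the levels in cRPKM were nearly the same with and without Dex. The ratio of knockdown to control was 2.23 in vehicle (log2 1.16, 1.12 to 1.20) and 2.16 in Dex (log2 1.11, 1.08 to 1.15).

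Gap43, whose product sits at the growth cone membrane, had 16397 reads in the vehicle control, 26800 after knockdown in vehicle, 16749 in the Dex control and 31130 after knockdown in Dex. Its log2 ratio was 0.73 (0.70 to 0.76) in vehicle and 0.61 (0.58 to 0.63) in Dex, inside the threshold in both. Stmn2, a membrane-bound stathmin of growing neurites, had 27341, 42010, 29839 and 48288 reads in the same order, with log2 ratios of 0.64 (0.62 to 0.66) in vehicle and 0.41 (0.39 to 0.43) in Dex. Tubb3, the neuronal class of beta-tubulin, had 68306, 85793, 65988 and 106262 reads, with log2 ratios of 0.35 (0.34 to 0.37) and 0.40 (0.38 to 0.41). All 3 genes had positive ratios whose counting intervals lay above 0 in both treatments.

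The microtubule-associated genes had negative ratios. Mapt, which encodes tau, had 3055 reads in the vehicle control, 1855 after knockdown in vehicle, 3289 in the Dex control and 2563 after knockdown in Dex, with log2 ratios of -0.70 (-0.78 to -0.61) in vehicle and -0.65 (-0.72 to -0.57) in Dex. Map2, whose product bundles microtubules mainly in dendrites, had 2667, 1659, 2686 and 2533 reads, with log2 ratios of -0.66 (-0.75 to -0.57) and -0.37 (-0.45 to -0.30). Both genes were lower in the knockdown library of each treatment, and neither passed the threshold.

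Dcx, the microtubule-binding protein of migrating young neurons, had 149 reads in the vehicle control, 47 after knockdown in vehicle, 175 in the Dex control and 96 after knockdown in Dex. It fell by 1.62 on the log2 scale (interval of the ratio -2.15 to -1.16) in vehicle and by 1.15 (-1.53 to -0.79) in Dex, the widest intervals of the 8 genes because its counts were the lowest. With a level of 0.08 to 0.27 cRPKM, Dcx was barely expressed in any library.

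Ncam1, the neural cell adhesion molecule, had 7430 reads in the vehicle control, 5622 after knockdown in vehicle, 7927 in the Dex control and 9043 after knockdown in Dex. The last of these is the most deeply sequenced library, so its raw count is the highest although the scaled level was not. The log2 ratio was -0.38 (-0.43 to -0.33) in vehicle and -0.10 (-0.14 to -0.06) in Dex. Nefl, the light neurofilament subunit, had 2, 3, 0 and 4 reads, and Nefm, the medium subunit, had 2, 0, 3 and 9 reads. These are too few for a ratio.

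**Figure D2:**
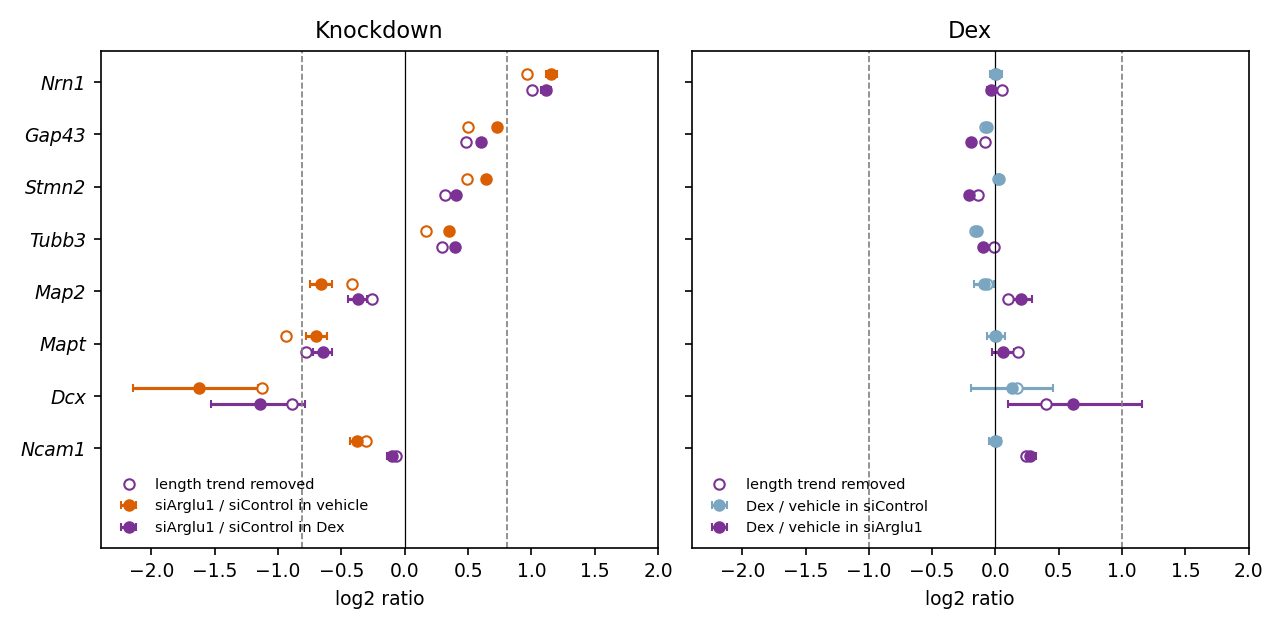
Log2 ratio of 8 genes for knockdown (left, siArglu1 over siControl, in vehicle and in Dex) and for Dex (right, Dex over vehicle, in siControl and in siArglu1), with 95% counting intervals; open circles are the ratios with the trend on mappable length removed and dashed lines the thresholds of 0.81 and 1. Nrn1 lies to the right of 0.81 and Dcx to the left of -0.81 in both treatments, and no gene reaches 1 for Dex.

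Across all genes, the knockdown ratio went with transcript length. Genes up to the lower quartile of mappable length (1.66 kb) had a median log2 ratio of 0.29 for knockdown in vehicle and 0.14 for knockdown in Dex, and genes above the upper quartile (4.11 kb) had -0.32 and -0.15, with Spearman correlations across 12484 genes of -0.40 and -0.23. Nrn1, Gap43 and Tubb3, with positive ratios, have mappable lengths of 1.57, 1.37 and 1.64 kb, and Map2 and Dcx, with negative ratios, have 4.93 and 9.07 kb. With the trend on length removed by a lowess curve, Nrn1 stood at 0.96 in vehicle and 1.0 in Dex on the log2 scale, and Dcx at -1.12 and -0.89, both still past the threshold. Gap43 then had 0.50 and 0.48, Stmn2 0.49 and 0.32, Tubb3 0.17 and 0.30, and Map2 -0.42 and -0.26.

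Mapt stood against the trend. Its mappable length, worked out from the deposited reads and cRPKM, is 1.31 kb, and its ratio was negative. Removing the trend therefore moved the ratio to -0.94 in vehicle, past the threshold, and -0.78 in Dex. The longest annotated Mapt transcript has 5253 nt, and with the trend taken on annotated lengths its log2 ratio was -0.50 in vehicle and -0.55 in Dex. On those lengths the ratio of Ncam1 moved from -0.38 to -0.07 in vehicle and changed sign in Dex, from -0.10 to 0.05. What underlies the length trend was not tested.

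**Figure D3:**
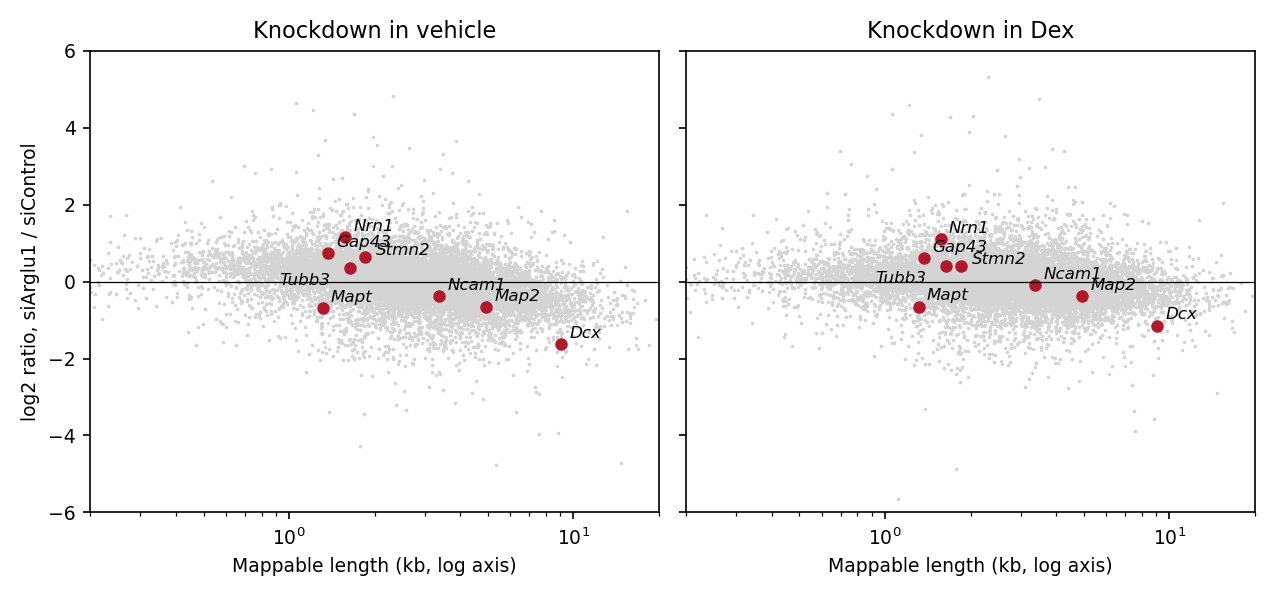
Log2 ratio of siArglu1 over siControl against mappable length (kb, log axis), in vehicle (left) and Dex (right), for the genes compared (grey; a few beyond the drawn range of length are left out), with 8 genes in red. Ratios decline with length, from a median of 0.29 below the lower quartile of length to -0.32 above the upper in vehicle, and Mapt, at 1.31 kb and a ratio of -0.70, lies below the genes of its length.

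Fitting knockdown and Dex together as additive terms over the 4 libraries leaves 1 residual degree of freedom and treats any departure from additivity as the spread. In this edgeR quasi-likelihood model, all 8 genes passed an adjusted p of 0.05 for knockdown, 4 higher (Nrn1, Gap43, Stmn2, Tubb3) and 4 lower (Map2, Mapt, Dcx, Ncam1), where 61.6% of all genes passed. The adjusted p in edgeR was 4.6e-37 for Nrn1 (log2 1.14), 8.8e-13 for Dcx (log2 -1.36) and 0.011 for Ncam1 (log2 -0.24). In an additive DESeq2 model (Wald test) the adjusted p was 2.3e-32 for Nrn1, 0.00036 for Dcx and 0.043 for Ncam1. These p-values rest on that departure from additivity, pooled across genes, and do not measure the spread between cultures.

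Dex over vehicle asked whether 4 h of glucocorticoid moved the same genes, with a log2 ratio of 1 as threshold. None of the 8 passed it in siControl or in siArglu1, where 0.464% and 0.392% of all genes did, and none passed the additive edgeR model for Dex, which called 1.04% of all genes (its adjusted p rounded to 1 for all 8). At an unadjusted p of 0.05, 0 of the 8 passed for Dex in edgeR and 0 in an additive DESeq2 model, with Dcx the lowest in edgeR at an unadjusted p of 0.09. In siControl, the ratios ran from -0.15 for Tubb3 to 0.13 for Dcx. In siArglu1 they ran from -0.21 for Stmn2 to 0.61 (0.10 to 1.16) for Dcx.

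The Dex ratio was compared between siArglu1 and siControl, with intervals for counting error. Map2 had -0.09 in siControl and 0.20 in siArglu1, a difference of 0.29 (0.17 to 0.41), and Ncam1 had -0.01 and 0.28, a difference of 0.28 (0.22 to 0.35). Stmn2 had 0.03 and -0.21, a difference of -0.24 (-0.27 to -0.21). The siArglu1 Veh library is in both the Dex ratio in siArglu1 and knockdown in vehicle, so their length trends are not independent. That Dex ratio went with length in the opposite direction to knockdown, with a Spearman correlation of 0.54. Its median was -0.14 below the lower quartile of length and 0.13 above the upper. With the trend on mappable length removed, the differences were 0.17 for Map2, 0.24 for Ncam1 and -0.16 for Stmn2. They were 0.18 for Mapt (0.05 before), 0.14 for Tubb3 (0.05 before) and 0.23 for Dcx (0.48 before, -0.12 to 1.07). With the trend taken on annotated length, the Dex ratio of Mapt was 0.03 in siControl and -0.03 in siArglu1. Ncam1 then had 0.02 and 0.15, Map2 -0.06 and 0.08, and Stmn2 0.03 and -0.21. With 1 library per group, whether the differences exceed the spread between cultures was not tested.

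Of the 42 splicing events, 32 had an inclusion value in all 4 libraries with enough reads to be compared, 12 in Mapt, 10 in Map2, 9 in Ncam1 and 1 in Stmn2. Inclusion is given as percent spliced in (PSI), the percentage of transcripts that carry the exon, and a difference of 15 was taken as the threshold. Gap43, Tubb3 and Nefm have no event in the tables, and those of Nrn1, Dcx and Nefl could not be compared. Knockdown moved 2 of 32 events past the threshold in vehicle and 1 in Dex, where 1.95% and 1.52% of all events passed. Dex moved 0 in siControl and 1 in siArglu1, where 0.718% and 0.947% passed.

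In Mapt, a 93-nt coding exon had a PSI of 17.98 in the vehicle control, 39.23 after knockdown in vehicle, 14.24 in the Dex control and 35.37 after knockdown in Dex. Inclusion was higher in both knockdown libraries than in both controls, by 21.25 in vehicle and 21.13 in Dex, and all 4 libraries had the highest coverage score (100 reads or more). This was the one event of these genes past the threshold in both treatments. An alternative 5′ splice site that lengthens this exon by 26 nt was used in 0 of 58 junction reads in siControl Veh, 3 of 44 in siArglu1 Veh (6.82%, exact Clopper-Pearson 1.43 to 18.7), 0 of 54 in siControl Dex and 4 of 80 in siArglu1 Dex (5.0%, 1.38 to 12.3). A count of 0 allows up to 5.17% and 5.56% in the controls, taking 3 reads of the total as the limit, and the exact upper bounds are 6.16% and 6.6%. Reads on the site were seen in the knockdown libraries only, and the difference was not tested.

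The other cassette exons of Mapt mostly moved the same way by less. The first 87-nt exon had a PSI of 10.9 in the vehicle control, 20.12 after knockdown in vehicle, 8.9 in the Dex control and 23.62 after knockdown in Dex. The second had 4.49, 10.64, 3.69 and 13.36. A 711-nt exon, known from the large tau of peripheral neurons, had 7.63, 15.48, 9.52 and 19.13.

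A 66-nt coding exon had 65.68, 75.38, 68.26 and 72.91, and a 97-nt exon had 16.83, 15.9, 19.28 and 22.2. In all, 7 of the 8 Mapt cassette exons had a higher PSI after knockdown in both treatments, and the 97-nt exon just named did so only in Dex. None of these other exons passed 15. Total Mapt reads were lower in the same libraries, so these are shares of a smaller pool.

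The 93-nt exon of Map2 printed above did not follow the Mapt exon of the same length. Its PSI was 13.68 in the vehicle control, 32.0 after knockdown in vehicle, 23.48 in the Dex control and 16.28 after knockdown in Dex. The PSI difference was 18.32 for knockdown in vehicle and -7.2 for knockdown in Dex, and 9.8 for Dex in siControl and -15.72 for Dex in siArglu1. The siArglu1 Veh value had a low coverage score (20 to 39 reads), and both differences past the threshold rest on it. A 63-nt noncoding exon of Map2 had 21.21, 7.69, 19.44 and 13.04 in the same order, lower after knockdown in both treatments, with fewer than 20 reads in siArglu1 Veh.

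None of the 9 Ncam1 events passed 15. The 801-nt exon, which lengthens the intracellular tail of the largest NCAM isoform, had a PSI of 28.57 in the vehicle control, 18.02 after knockdown in vehicle, 24.41 in the Dex control and 21.04 after knockdown in Dex. The 30-nt VASE exon had 4.68, 0.5, 4.35 and 2.59. Both were lower after knockdown in each treatment, and by less in Dex.

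The muscle-specific region of Ncam1 is a run of small optional exons. Its 3-nt exon had a PSI of 72.29, 76.52, 70.03 and 72.21, its 15-nt exon 2.46, 2.11, 1.49 and 7.22, and its 48-nt and 42-nt exons were at 0.45 or below in every library. Differences of 3 nt at the start of 2 further exons had 71.81, 74.97, 71.12 and 68.83 for one and 24.02, 24.22, 26.84 and 22.5 for the other. The largest difference among these events in any pair was 6.14 in size.

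**Figure D4:**
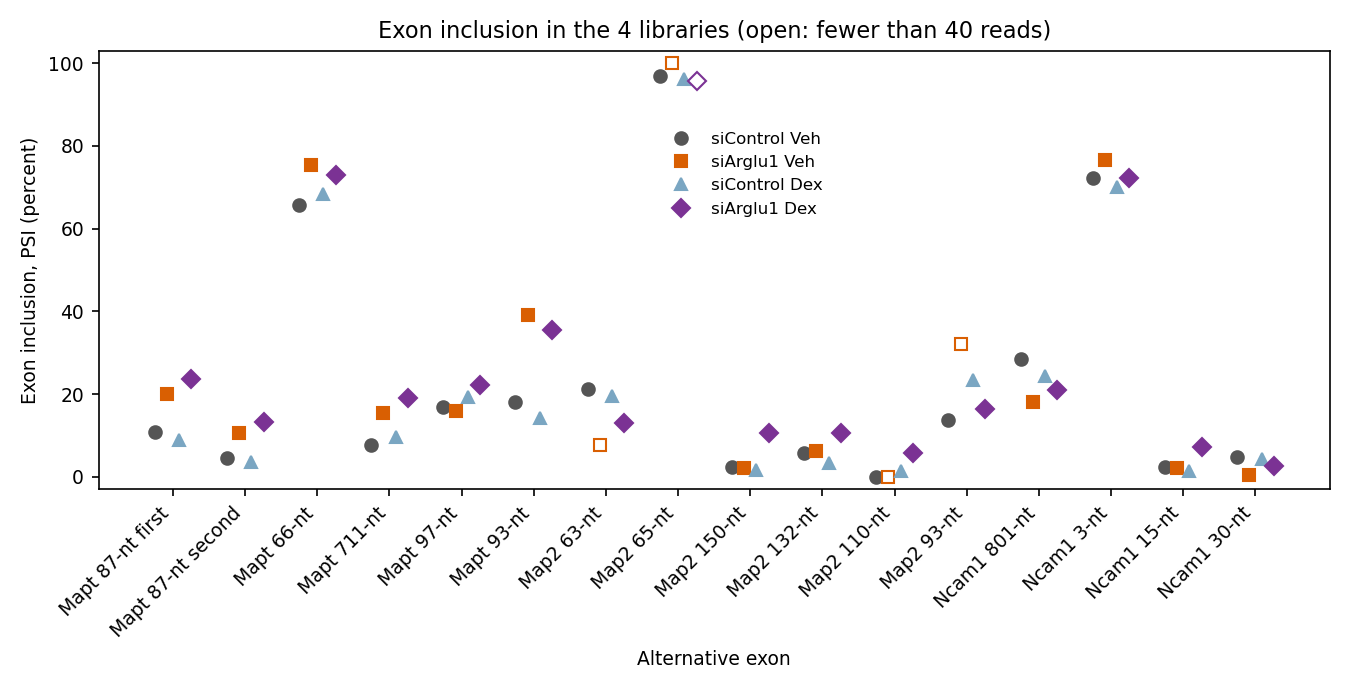
Inclusion (PSI, percent) in each library of the 16 cassette exons and microexons of Mapt, Map2 and Ncam1 that differed by 4 or more in any pair; open symbols have fewer than 40 reads. The 93-nt exon of Mapt stands at 39.23 and 35.37 in the knockdown libraries and 17.98 and 14.24 in the controls, while that of Map2 has its highest value, 32.0, in a library with few reads.

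The same families have 63 further genes on fixed lists, of which 54 could be compared. Knockdown moved 8 of them past 0.81 in vehicle, 4 higher and 4 lower, and 9 in Dex, 4 higher and 5 lower, which is near the share among all genes given above. Dex moved none past 1. The medians of the 54 were -0.01 and 0.06 for knockdown in vehicle and in Dex.

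Among growth cone genes, Tiam1, a guanine nucleotide exchange factor, had 7.37, 3.10, 6.94 and 3.61 cRPKM in siControl Veh, siArglu1 Veh, siControl Dex and siArglu1 Dex, and fell by 1.21 and 0.95 on the log2 scale. Without the length trend it had -0.80 and -0.75, inside the threshold in both treatments. Nrn1l, the relative of neuritin, had 15 to 29 reads and log2 ratios of -0.57 and 0.38, inside the threshold. The 15 compared genes of the list, Nrn1 and Gap43 included, had a median of -0.19 in vehicle and 0.01 in Dex. Without Nrn1 and Gap43, the median was -0.24 and -0.01, and 10 of 13 had a negative ratio in vehicle and 7 of 13 in Dex.

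All 4 stathmins had enough reads. Stmn4, like Stmn2 a stathmin of neurons, had 32.1, 69.6, 30.3 and 63.8 cRPKM and rose by 1.15 in vehicle and 1.07 in Dex. Stmn3 had log2 ratios of 0.74 and 0.48, and Stmn1, the most abundant at 1257 to 1479 cRPKM, had 0.01 and -0.22. With the length trend removed, the median over the 4 was 0.48 in vehicle and 0.33 in Dex.

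Of 17 compared genes for microtubule-associated proteins, Map2, Mapt and Dcx included, 13 had a negative ratio in vehicle and 9 in Dex. Without Map2, Mapt and Dcx, it was 10 of 14 in vehicle and 6 of 14 in Dex. Dclk1, a kinase related to doublecortin, fell by 1.24 and 1.14. Without the length trend it had -0.80 in vehicle, inside the threshold, and -0.92 in Dex. Map1b, the largest, had -0.80 and -0.37, which became -0.19 and -0.06 without the length trend. Map4, a widely expressed microtubule-associated protein, went the other way with 0.65 and 0.76, and 0.98 and 0.92 without the length trend. Mapre1, a plus-end binding protein, had 0.63 and 0.60, and 1.03 and 0.80 without it. The median of the 17 was -0.39 and -0.12, and -0.16 and -0.03 without the length trend. Leaving out Map2, Mapt and Dcx, it was -0.22 and 0.03, and -0.01 and 0.04 without the length trend.

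Of 13 compared tubulins, Tubb3 included, 10 had a positive ratio in vehicle and 9 in Dex. Their median was 0.35 and 0.28, and 0.02 and 0.14 without the length trend. Without Tubb3, 9 of 12 had a positive ratio in vehicle and 8 of 12 in Dex. Tubb6 rose by 0.97 and 0.96, and without the length trend had 0.77 in vehicle, inside the threshold, and 0.84 in Dex. Tuba8 fell by 1.09 and 1.14, and Tubb2b, a neuronal isotype close to Tubb3, had 0.32 and 0.28. Some tubulins have a short mappable length, 0.347 kb for Tuba1a, 0.408 for Tuba1b and 0.607 for Tubb2a, beside 1.64 for Tubb3. Whether reads shared between copies enter these ratios was not tested.

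Nefl and Nefm were almost silent, but other intermediate filaments were not. Nefh, the heavy neurofilament subunit, had 51.3 to 57.9 cRPKM, Ina (alpha-internexin) 57.5 to 67.8 and Prph (peripherin) 372 to 670. Nefh had log2 ratios of -0.09 and -0.08 and Ina of -0.12 and -0.10, with no ratio near the threshold. Nes (nestin, a filament of neural progenitors) rose from 5.25 to 10.2 cRPKM in vehicle and from 4.90 to 12.0 in Dex, log2 ratios of 1.0 and 1.28. Prph had -0.66 in vehicle and fell by 0.81 in Dex. Without the length trend it had -0.82 and -0.90, past the threshold of 0.81 in both treatments.

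Among adhesion genes, Nfasc, which encodes neurofascin, had 0.74, 1.47, 1.26 and 2.59 cRPKM in the same order. It rose by 1.02 in vehicle and 1.03 in Dex, and its Dex ratios were 0.77 and 0.78, inside the threshold of 1. Ncam2, the relative of Ncam1, had no read in any library. Without the length trend, Nfasc had 1.55 and 1.30 for knockdown. The 8 compared genes, Ncam1 included, had a median of 0.11 in vehicle and 0.26 in Dex, and 0.36 and 0.38 without the length trend. Leaving out Ncam1, the median of the other 7 was 0.196 and 0.345, and 0.48 and 0.60 without the length trend.

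**Figure D5:**
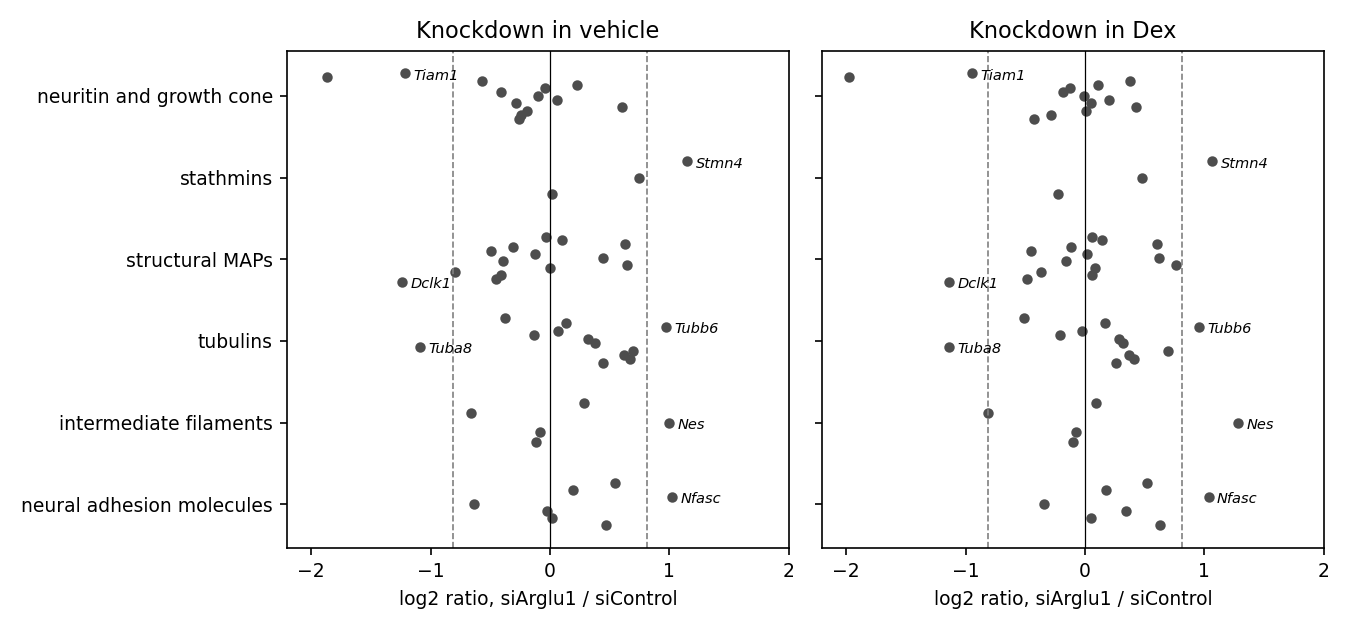
Log2 ratio of siArglu1 over siControl for the 54 further genes of the same families, 1 point per gene, in vehicle (left) and Dex (right); dashed lines mark 0.81 in both directions. Tiam1, Dclk1 and Tuba8 lie below the threshold and Stmn4, Tubb6, Nes and Nfasc above it in both treatments. Without the length trend, which is not drawn, Tiam1 is inside it in both and Dclk1 and Tubb6 in vehicle.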

How the data were processed

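RNA-seq of 4 N2a libraries was analysed, 1 per group, each from mRNA of 3 pooled cultures, so samples were grouped by siRNA and treatment as labelled. The authors deposited raw read counts per gene, and RPKM corrected for mappability (cRPKM), rounded to 2 decimals. The authors also deposited PSI as a percent per event and library, with a coverage score in words. The submitters' processing notes name Bowtie and the mm9 build, and the paper names vast-tools. No version or annotation is given in the sources used here. For these unstranded libraries, reads of overlapping genes cannot be told apart. The table's 2 unnamed columns, which hold the authors' own Dex over Veh ratio, were left out.

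Reads were scaled with TMM factors of edgeR 4.0.16 (R 4.3.3, limma 3.58.1), and ratios were taken on log2 CPM with a prior count of 1, for genes with at least 75 reads over the 4 libraries. Thresholds were 0.81 (knockdown, the size used by the study) and 1 (Dex) on the log2 scale. Totals of 66074574 to 86541444 reads on genes set the precision. Intervals of ratios are exact and condition on the reads of both libraries, and intervals of shares are Clopper-Pearson. Intervals of differences between Dex ratios are a normal approximation from the reads of the 4 libraries. All these intervals cover counting error only. Both additive models (edgeR quasi-likelihood and DESeq2 1.42.0) were fitted to all genes with a Benjamini-Hochberg adjusted p of 0.05. Mappable lengths were not given by the authors and were worked out from the reads, the cRPKM and the total reads on genes. The trend on mappable length was removed with lowess (statsmodels 0.14.6, span 0.3, 3 iterations). The size threshold, the additive edgeR fit and the interval of a ratio were tested on simulated counts. The length correction and the splicing steps were not.

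An event was compared where every library had a PSI and 3 or more scored LOW or better, and events past 15 PSI were counted. The numbers of reads behind each score come from the tables of alternative splice sites, which list both, and are assumed to hold for cassette exons. Exon sequences were read from GENCODE M21. The sequence of 1 exon and the values of 1 list gene past the threshold are not reported here.

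The text names all 10 genes, Arglu1, list genes past 0.81 in the same direction in both treatments (up to 4 per list), relatives of the 10 genes, events past 15 PSI and cassette exons between 10 and 90 PSI in all libraries. Prph, Map4, Mapre1 and the other exons and splice sites were named after their values were seen. The genes and lists were chosen with earlier results of these data known. Alternatives were another scaling, prior count, minimum, threshold, unit, length correction and model.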

Additional observations from a re-analysis of the deposited data

Results flagged for a closer look

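The Dex ratio had opposite signs in siControl and siArglu1, with both counting intervals clear of 0, in 2 genes. Stmn2 had a log2 ratio of 0.027 (0.003 to 0.05) in siControl and -0.21 in siArglu1, and Map2 had -0.089 (-0.167 to -0.012) and 0.20. Scaled by total reads alone, Stmn2 had 0.018 in siControl, and without the trend on mappable length Map2 had -0.064 there. The 93-nt exon of Map2 changed in opposite directions, with a PSI difference of 18.32 for knockdown in vehicle and -7.2 in Dex, and of 9.8 for Dex in siControl and -15.72 in siArglu1. With 1 library per group, these differences between groups were not tested. The siArglu1 Veh library held 20 to 39 reads for that exon by its score.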

How the results depend on the processing

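No paired analysis was possible because each group has 1 library, so no replicate number can serve as a block, and no library could be left out of a pair. The additive models set knockdown within treatment, with 1 residual degree of freedom. The count of genes past 0.81 was 2 in vehicle and in Dex, and Nrn1 passed in both under each scaling, prior count, unit and length correction. In vehicle it was 1 at a mean of at least 1 cRPKM, 6 at a threshold of 0.5, 1 at 1.5, and 8 in the additive edgeR and DESeq2 models. In Dex it was 1 with cRPKM and a pseudocount of 0.1 (Dcx drops out), 4 with no minimum of reads (Nefl and Nefm enter on a handful of reads), 1 at a mean of at least 1 cRPKM, 4 at a threshold of 0.5, 0 at 1.5, and 8 in both models. For Dex, the count of 0 became 1 in siControl (Nefl) and 1 in siArglu1 (Nefm) with no minimum of reads, and 1 in siArglu1 at a threshold of 0.5 (Dcx). Removing the trend on mappable length brought Mapt past 0.81 in vehicle, for 3 genes. The trend on annotated length was an alternative chosen after seeing the data.

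The events past 15 PSI for knockdown in vehicle went from 2 to 4 at a threshold of 10, 0 at 25, and 1 with a score of OK in all 4 libraries. For knockdown in Dex they went from 1 to 2 at 10, 0 at 25 and 3 with no coverage minimum. For Dex in siControl, 0 became 1 with no coverage minimum. For Dex in siArglu1, 1 became 3 at 10, 0 at 25, 2 with no coverage minimum and 0 with a score of OK in all 4. Depth limits Dcx, Nefl, Nefm and the Map2 exons most.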
